A study of Mus musculus with 19 samples.

Results

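Chemokines and chemokine receptors were followed by poly-A RNA sequencing in normal mouse colon and in colon tumours. The members were the genes of the table whose symbols name a CC or CXC ligand, a CC or CXC receptor or an atypical chemokine receptor by family and number, with Cx3cl1, Cx3cr1, Xcl1, Xcr1, Pf4 and Ppbp added. Symbols alone chose them, and 60 of 32694 genes matched, of which 38 were ligands and 22 were receptors. In all, 53 of the 60 had at least 10 normalized counts in at least 5 libraries and were tested, along with 18445 genes in total.

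Each of the 19 libraries came from 1 mouse of 12 weeks. Wild-type colon (WT) was taken from 3 females and 2 males. Apc tumours were individual tumours of 3 females and 4 males, heterozygous for Apc, a tumour suppressor gene, after Villin-Cre removed 1 allele. ApcTT tumours, again 1 per mouse from 3 females and 4 males, shared that Apc deletion and were in addition Tgif1;Tgif2 null, with Villin-Cre having removed both alleles of each of these genes for transcriptional repressors. Villin-Cre acts in the gut epithelium, so that the immune and stromal cells of a tumour, in which many chemokines are made, keep the targeted alleles. WT colon carried none of these deletions according to the labels, and no tumour-bearing mouse gave an uninvolved colon library among the 19.

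Chemokines are small secreted proteins that steer leukocytes through G protein-coupled receptors, and they are grouped by the spacing of their first cysteines into CC, CXC, CX3C and XC families. CXC ligands with a Glu-Leu-Arg (ELR) motif act on Cxcr2 and draw neutrophils, whereas the interferon-induced CXC ligands act on Cxcr3 of T and NK cells. In the gut, Ccl20 with Ccr6, Ccl19 with Ccr7 and Cxcl13 with Cxcr5 place lymphocytes in lymphoid follicles, Ccl28 with Ccr10 brings in IgA plasma cells, and the atypical receptors Ackr1 to Ackr4 bind chemokines without G protein signalling.

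Among the ELR ligands, 3 genes of 1 cluster share a run of letters in their promoters, and these are shown because the genes moved together. The letters are RefSeq sequence of GRCm38.p6, 250 bases that end at the base before the RefSeq start, on the plus strand of chromosome 5. The windows are chr5:90890995-90891244 for Cxcl1, chr5:90903649-90903898 for Cxcl2 and chr5:90785851-90786100 for Cxcl3, and capitals mark matches on either strand to the letters of a kappa B site (GGG, then NN, then TTTCC).
Cxcl1: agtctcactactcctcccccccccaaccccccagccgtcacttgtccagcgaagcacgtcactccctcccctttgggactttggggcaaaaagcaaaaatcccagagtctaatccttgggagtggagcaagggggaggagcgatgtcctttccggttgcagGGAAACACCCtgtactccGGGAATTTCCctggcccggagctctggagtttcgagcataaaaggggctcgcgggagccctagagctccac
Cxcl2: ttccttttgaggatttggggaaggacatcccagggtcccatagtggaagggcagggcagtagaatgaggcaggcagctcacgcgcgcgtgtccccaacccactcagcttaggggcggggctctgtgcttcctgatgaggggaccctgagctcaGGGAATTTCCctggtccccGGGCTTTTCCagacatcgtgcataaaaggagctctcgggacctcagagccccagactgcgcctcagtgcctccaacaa
Cxcl3: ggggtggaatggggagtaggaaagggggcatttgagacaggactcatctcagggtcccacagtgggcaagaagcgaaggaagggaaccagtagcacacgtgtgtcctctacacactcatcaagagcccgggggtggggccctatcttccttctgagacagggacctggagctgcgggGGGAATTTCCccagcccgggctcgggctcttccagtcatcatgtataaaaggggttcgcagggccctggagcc
The run GGGAATTTCC stood 71 bases before the start of Cxcl1, 97 before that of Cxcl2 and 73 before that of Cxcl3. Cxcl1 and Cxcl2 each held another match, GGAAACACCC on the opposite strand at 89 bases and GGGCTTTTCC at 78 bases, and no matches overlapped. Windows of 300 bases, from 250 before to 50 after the start, were found for 45 members. Of these, 6 (13.3%) held the kappa B letters, namely Ccl20, Ccl9, Ccr3, Cxcl1, Cxcl2 and Cxcl3, against 1.89% of all 27025 gene symbols. The interferon response letters (TTTC, then NN, then TTTC), searched on both strands, were held by 3 members (6.67%), Ccl19, Cxcl10 and Cxcl14, against 3.99% of symbols. The windows of Ppbp and Cxcl15, ELR ligands of the same cluster, held neither set of letters, and no window was found for Cxcl5. Cxcl5 and Ppbp rose in tumours as well, as given below. These matches describe letters only.

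Each library summed to 34417808 to 44732717 normalized counts. The ribosomal transcript Rn45s took 0.171% to 3.5% of the total in 18 libraries and 9.35% in ApcTT replicate 5. Epithelial markers checked the tissue: of 9, 1 was called higher and 5 lower in each tumour group against WT, with summed levels of 452118 to 571808 in WT, 266710 to 515920 in Apc and 313918 to 393801 in ApcTT and none at 0. All 8 smooth muscle markers and all 11 B cell markers were called lower in each tumour group than in WT. Tgif1 averaged 964 ± 143 in WT, 3815 ± 803 in Apc and 354 ± 137 in ApcTT. Tgif2, however, averaged 161 ± 50.1, 642 ± 92.1 and 2657 ± 352 in the same order, so the whole-gene level of Tgif2 goes against the null label. Reads from outside the deleted exons count toward such a level, so it does not check the deletion, and the third group is called ApcTT-labelled below. Apc averaged 5771 ± 1339, 6334 ± 1066 and 7272 ± 1186 and was called in no comparison. Numbers of replicates below follow the order of the sample records.

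Ligand composition differed between normal colon and tumours. Per kilobase of annotated exon, the most abundant ligands in WT were Ccl6 (4814 mean normalized counts per kb), Ccl28 (1938) and Cx3cl1 (775). In Apc tumours they were Cxcl5 (3341), Ccl6 (2505) and Cxcl14 (1906), and in ApcTT-labelled tumours Cxcl5 (2765), Cxcl14 (2414) and Ccl6 (1781). Among receptors Cxcr4 led in WT (249 per kb), and Ackr3 led in Apc (322) and ApcTT-labelled tumours (676).

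Against WT, 18 members were called higher and 16 lower in Apc tumours, with 19 not called, at a limma adjusted p under 0.05. Over all genes tested, 23.9% were called higher and 25.2% lower (49.1% in all), beside which 34 of 53 members were called. In ApcTT-labelled tumours 14 members were called higher and 13 lower, beside 24.8% and 25.5% of all genes (50.3% in all). Median log2 fold changes of the members were -0.08 and 0.07, beside -0.01 and 0.00 for all genes. Apc tumours lay wholly above WT for 13 members and wholly below for 8, beside 14% and 15.4% of all genes. For ApcTT-labelled tumours these numbers were 11 and 9, beside 14.1% and 16.5%. Values of Apc and ApcTT-labelled tumours are given side by side, since both are set against the same 5 WT libraries. The split of 18 higher and 16 lower in Apc became 20 and 11 with equal library totals, which moved the median of all genes to 0.19, and 20 and 12 with quantile normalization. No called member changed sign under these scalings (0 results), but some calls against WT were lost. With equal library totals these were Ackr4, Ccl20, Ccl25, Ccl27b and Ccl5 in Apc. Quantile normalization lost Ccl25, Ccl27b, Ccl5 and Ccr4 in Apc and Ccr7 in ApcTT-labelled tumours.

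**Figure D1:**
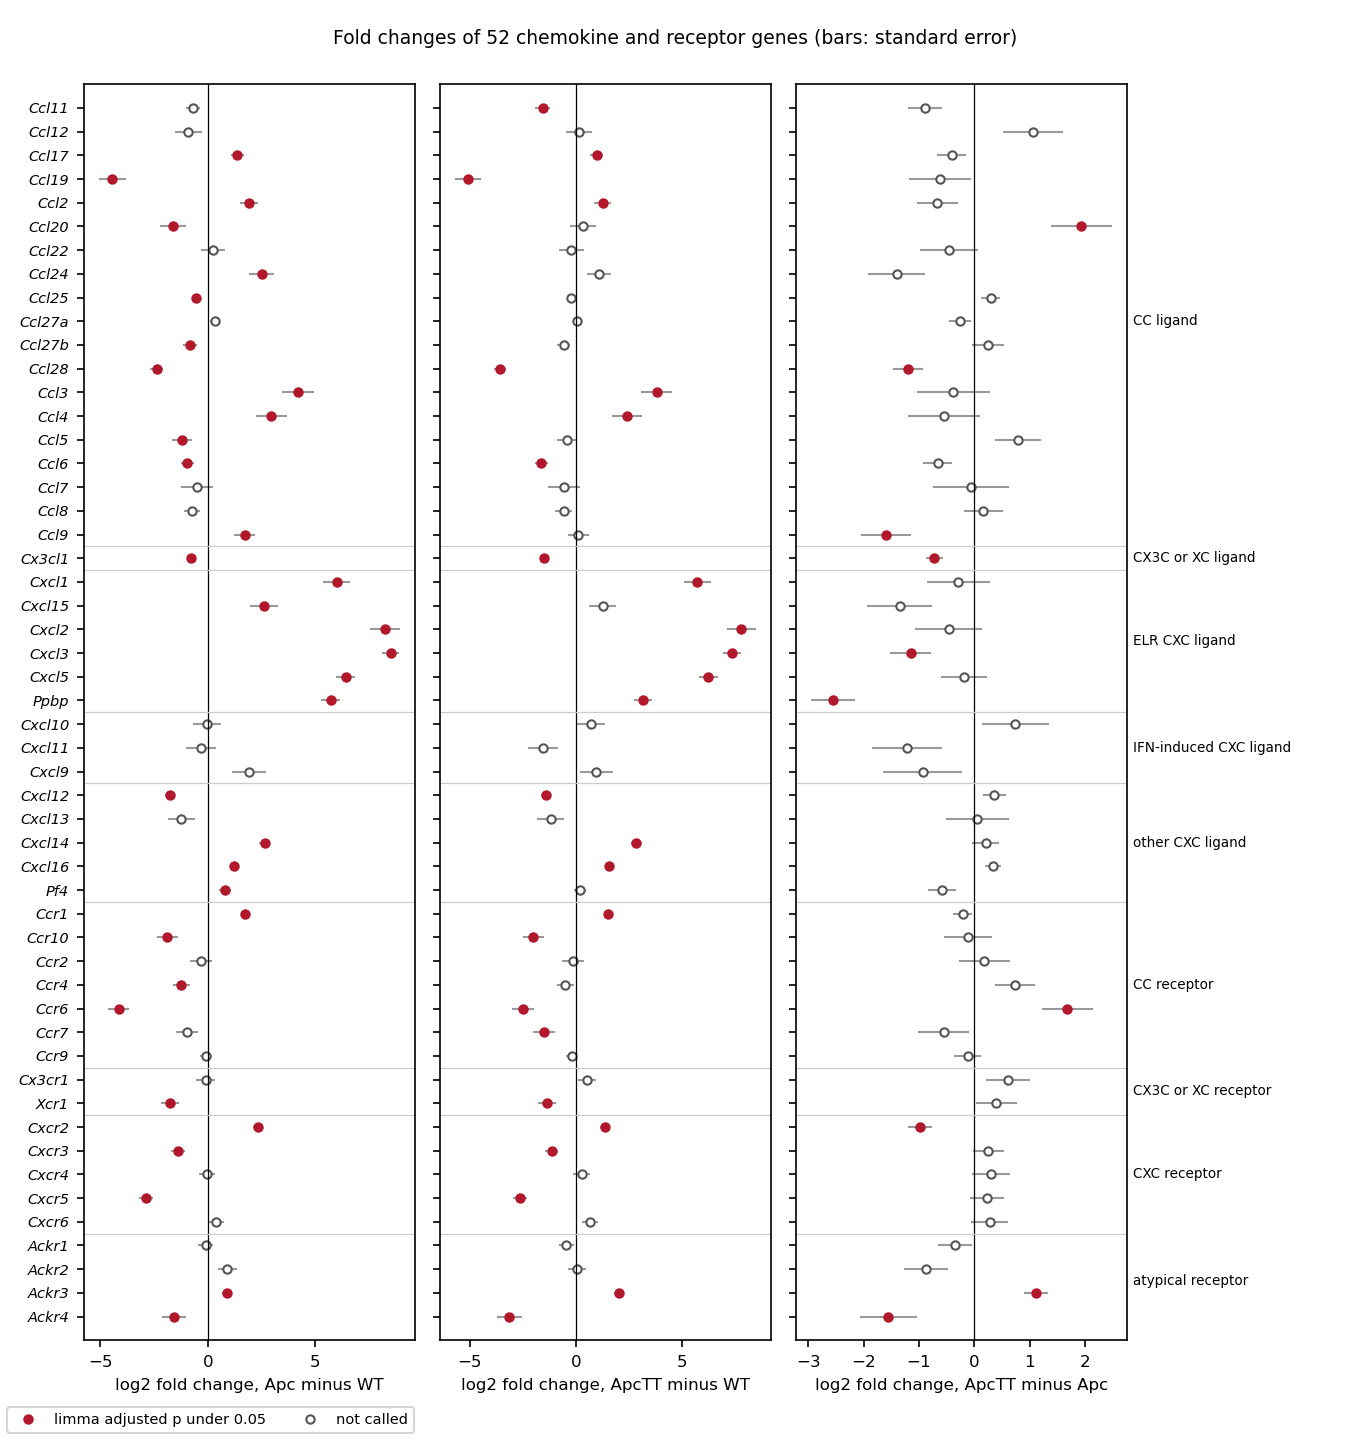
Log2 fold changes (x axes) of 52 tested members (rows, grouped by class) in Apc against WT, ApcTT against WT and ApcTT against Apc; points are limma estimates, bars are standard errors and filled points have an adjusted p under 0.05. Cxcl1, Cxcl2, Cxcl3 and Cxcl5 lie farthest to the right in the comparisons with WT (Cxcl3 at 8.50 in Apc and Cxcl2 at 7.78 in ApcTT), and Ccl19 lies farthest to the left (-4.46 and -5.07); the x axis of the panel of ApcTT against Apc spans a smaller range.

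All 6 ELR ligands rose in Apc tumours, and 5 of 6 rose in ApcTT-labelled tumours, beside 23.9% and 24.8% of all genes. Cxcl3, Cxcl2, Cxcl1 and Cxcl5, which activate Cxcr2 on neutrophils, were at most 95.9 normalized counts in every WT library and at least 97.8 in every tumour. As in any bulk tissue, more cells that make a transcript and more transcript per cell cannot be told apart here.

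Cxcl5, an epithelial and stromal neutrophil attractant, measured 68.1, 95.9, 63.5, 48.9 and 41.0 normalized counts in the 5 WT libraries. In Apc tumours it ran from 1758 over a median of 4594 to 13082, and in ApcTT-labelled tumours from 1362 over 5483 to 7723. No tumour overlapped WT. The log2 fold change was 6.42 ± 0.46 (SE; limma adjusted p = 2.33e-09) in Apc and 6.23 ± 0.46 (limma adjusted p = 2.52e-09) in ApcTT-labelled tumours.

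Cxcl1, the main mouse counterpart of the GRO chemokines, measured 3.79, 19.4, 16.5, 41.7 and 4.56 normalized counts in WT, 309 to 1949 in Apc with a median of 1229, and 308 to 3009 in ApcTT-labelled tumours with a median of 528. All 14 tumours lay above all 5 WT libraries. Its log2 fold change was 5.99 ± 0.63 (SE; limma adjusted p = 3.51e-07) in Apc and 5.71 ± 0.63 (4.41e-07) in ApcTT-labelled tumours.

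Cxcl2, made by macrophages, neutrophils and epithelium under inflammatory stimuli, measured 0, 6.07, 0.92, 7.63 and 4.84 normalized counts in WT. It ran from 597 over 1468 to 2283 in Apc and from 211 over 601 to 3990 in ApcTT-labelled tumours. Every tumour exceeded every WT library, with log2 fold changes of 8.25 ± 0.68 (SE; limma adjusted p = 1.55e-08) and 7.78 ± 0.68 (2e-08). In Cxcl3, its close relative, 4 WT libraries were at 0 and the other at 2.28, beside 222, 391 and 1037 (lowest, median, highest) in Apc and 97.8, 207 and 359 in ApcTT-labelled tumours. Groups were again separate, and the log2 fold change of Cxcl3 in Apc, 8.50 ± 0.41 (SE; limma adjusted p = 9.31e-12), depends on the constant of 1 added before the logarithm, being 6.41 with 5 and 9.36 with 0.5.

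Ppbp, the precursor of a platelet-derived ELR chemokine, measured 5.05, 1.14, 4.35, 8.62 and 4.56 normalized counts in WT. Apc tumours held 191 to 380 with a median of 285, and ApcTT-labelled tumours held 16.1 to 129 with a median of 50. All 3 groups were separate from each other. Log2 fold changes against WT were 5.72 ± 0.44 (SE; limma adjusted p = 5.06e-09) in Apc and 3.16 ± 0.44 (6.04e-06) in ApcTT-labelled tumours. The platelet marker list moved less: of 7 genes 3 were tested, Gp1bb alone was called, at 1.92 and 1.94, and the summed list ran from 144 to 218 in WT, 223 to 853 in Apc and 261 to 826 in ApcTT-labelled tumours, with no marker at 0 in all libraries of a group. In females this sum ran from 223 to 271 in Apc and 557 to 826 in ApcTT-labelled tumours, and in males from 445 to 853 and 261 to 348. Ppbp differed between the tumour groups by -2.89 in females and -2.31 in males. The part of the platelet list in the Ppbp result was not tested. Cxcl15, known mainly from lung, stayed under 20 normalized counts in every library and was called in Apc (2.60 ± 0.65 SE, limma adjusted p = 0.00268). In ApcTT-labelled tumours Cxcl15 was at 1.25 ± 0.65 (limma adjusted p = 0.118), with a call without WT replicate 2 (1.72, 0.033) or ApcTT replicate 3 (1.63, 0.0409), and the tumour groups were not called different (-1.35, 0.132).

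Their shared receptor Cxcr2 rose too. It measured 89.6, 118, 85.3, 81.9 and 85.4 normalized counts in WT, 338 to 546 with a median of 477 in Apc, and 159 to 406 with a median of 214 in ApcTT-labelled tumours. Both tumour groups lay wholly above WT, with log2 fold changes of 2.35 ± 0.24 (SE; limma adjusted p = 1.69e-07) and 1.37 ± 0.24 (7.58e-05). Cxcr1, the other ELR receptor, averaged 0.94, 3.41 and 1.13 normalized counts and was not tested.

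Neutrophil markers moved beside these genes. Of 20 markers 19 were tested, and 17 were called higher and 2 lower in each tumour group against WT, with median log2 fold changes of 5.20 and 4.32. Defining markers S100a8 and S100a9 averaged 3.38 ± 4.77 and 4.55 ± 4.98 (SD, n = 5) in WT and 2694 ± 916 and 3421 ± 938 (n = 7) in Apc, and Stfa2l1 and Mrgpra2b were at 0 in all WT libraries. The 2 lower markers, Ly6g and Slfn4, were the most abundant of the list in WT (means 7471 and 12302), so the summed list overlapped between groups, at 6564 to 43131 in WT, 15062 to 24633 in Apc and 6865 to 26477 in ApcTT-labelled tumours. The part of neutrophil number in the ligand results was not tested.

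**Figure D2:**
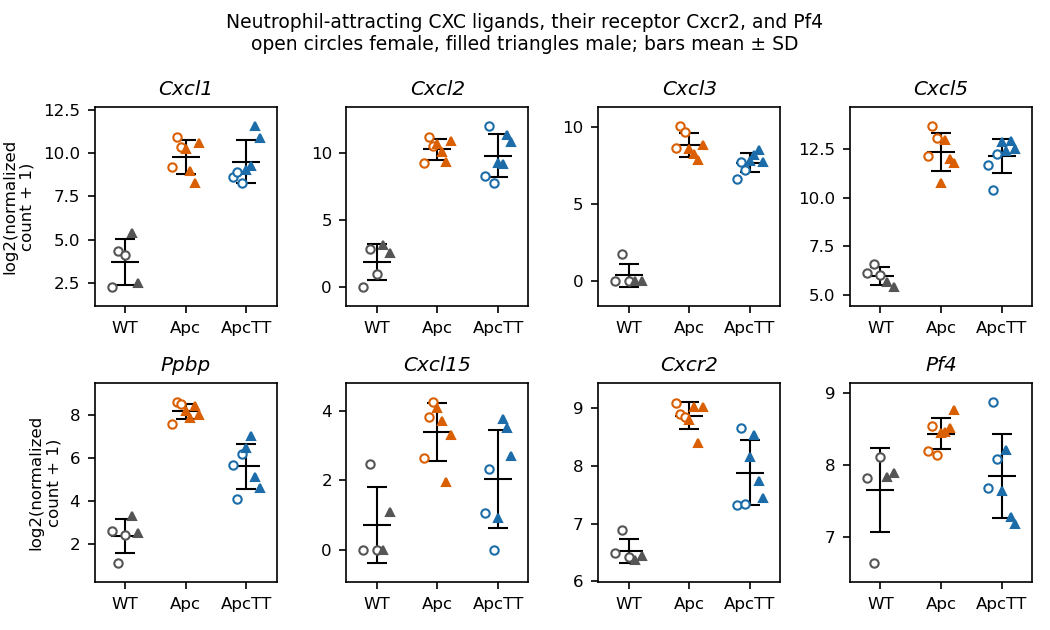
Expression in each library (y axis, log2 of normalized count + 1; scales differ between panels) by group for the ELR ligands, Cxcr2 and Pf4; open circles are females, triangles males, bars mean ± SD (WT n = 5, Apc n = 7, ApcTT n = 7). For Cxcl1, Cxcl2, Cxcl3, Cxcl5, Ppbp and Cxcr2 every tumour lies above every WT library, whereas Pf4 overlaps between ApcTT and WT.

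Neighbours in the gene cluster did not all move alike. The cluster on chromosome 5 of GRCm38 runs in the order Cxcl5, Ppbp, Pf4, Cxcl3, Cxcl15, Cxcl1 and Cxcl2, from chr5:90759360 to chr5:90905938 (GENCODE vM21). Pf4, a platelet chemokine without the ELR motif that lies between Ppbp and Cxcl3, had a log2 fold change of 0.79 ± 0.28 (SE; limma adjusted p = 0.0254) in Apc, which was lost without WT replicate 2 (0.53, limma adjusted p = 0.0906), and 0.20 in ApcTT-labelled tumours.

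Among the other CXC ligands, Cxcl14 and Cxcl16 rose in both tumour groups and Cxcl12 fell in both. Cxcl14, an epithelial and stromal chemokine, measured 567, 721, 510, 565 and 472 normalized counts in WT, 2102 to 4571 in Apc and 2640 to 10368 in ApcTT-labelled tumours. WT lay below every tumour, with log2 fold changes of 2.64 ± 0.27 (SE; limma adjusted p = 2e-07) and 2.84 ± 0.27 (5.04e-08). Cxcl16, a membrane-bound ligand of Cxcr6, rose by 1.23 ± 0.16 and 1.57 ± 0.16 (limma adjusted p = 3.73e-06 and 1.37e-07), while Cxcr6 itself was not called (0.37 and 0.66).

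Cxcl12, a stromal chemokine that retains and recruits cells through Cxcr4, measured 4207, 2737, 3293, 2324 and 2646 normalized counts in WT, 492 to 1678 in Apc and 862 to 1569 in ApcTT-labelled tumours. All tumours lay below WT, by -1.78 ± 0.23 (SE; limma adjusted p = 4.4e-06) and -1.42 ± 0.23 (4.81e-05) on the log2 scale. Smooth muscle markers, from a tissue layer that normal colon holds, fell beside it: 8 of 8 in both groups, with summed levels of 200911 to 299987 in WT, 13160 to 22505 in Apc and 10043 to 18731 in ApcTT-labelled tumours, and no marker at 0. Of 8 fibroblast markers, 4 were higher and 1 was lower in Apc, and 3 were higher and 1 was lower in ApcTT-labelled tumours, with summed levels of 56475 to 86570, 83286 to 173741 and 51991 to 102210. What part these cells had in the fall of Cxcl12 was not tested.

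None of the 3 interferon-induced ligands was called in the 3 comparisons over both sexes by limma with all libraries. Cxcl9 came closest in Apc, at 1.90 ± 0.80 (SE; limma adjusted p = 0.0552), and its Apc libraries spread from 27.4 to 1723 normalized counts around a median of 469, beside 42.9 to 160 in WT and 60.9 to 301 in ApcTT-labelled tumours. Cxcl9 was called in Apc without WT replicate 4 (2.30, limma adjusted p = 0.0375), Apc replicate 4 (2.38, 0.00743) or Apc replicate 6 (2.28, 0.0171), and with equal library totals (2.10, 0.0317) or quantile normalization (2.03, 0.0434). In females alone Cxcl9 was at 3.60 in Apc (limma adjusted p = 0.00182), beside 0.11 in males. Cxcl10 overlapped in all groups, with medians of 108, 137 and 249. In males alone Cxcl10 was called lower in Apc than in WT (-2.05, limma adjusted p = 0.011), beside 1.89 in females. For neither gene was the sex difference in Apc against WT called (limma adjusted p = 0.357 for Cxcl9 and 0.135 for Cxcl10). Between the tumour groups Cxcl10 differed by -0.86 in females and 1.94 in males (limma adjusted p of the difference = 0.0295). Cxcl11, which GENCODE annotates as a polymorphic pseudogene, had medians of 11.4, 6.33 and 3.13 and was called in ApcTT-labelled tumours without replicate 2 (-1.80, limma adjusted p = 0.0442). Their receptor Cxcr3, of activated T cells, fell by -1.40 ± 0.31 (SE; limma adjusted p = 0.000974) in Apc and -1.14 ± 0.31 (0.00434) in ApcTT-labelled tumours, from a WT mean of 38.7 ± 9.90 (SD, n = 5). T cell markers were called lower in 4 and 3 of 12, with none higher, beside 25.2% and 25.5% of all genes called lower. Their summed levels overlapped, at 1162 to 2032 in WT, 1251 to 1711 in Apc and 969 to 1619 in ApcTT-labelled tumours.

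Of 19 tested CC ligands, 6 rose and 7 fell in Apc tumours, beside 23.9% and 25.2% of all genes, and 4 rose and 4 fell in ApcTT-labelled tumours, beside 24.8% and 25.5%. Ccl3, Ccl4, Ccl2 and Ccl17 rose in both. Ccl3 and Ccl4, ligands of Ccr1 made by activated myeloid cells, were nearly absent from WT. For Ccl3 the WT libraries held 1.26, 2.28, 0.87, 5.75 and 2.28 normalized counts, Apc tumours 20.8 to 155 with a median of 62.9, and ApcTT-labelled tumours 9.61 to 430 with a median of 33.5. WT did not overlap either tumour group. Log2 fold changes were 4.19 ± 0.73 (SE; limma adjusted p = 0.000101) and 3.81 ± 0.73 (0.000229). The value of 430 came from ApcTT replicate 2, without which the second fold change was 3.13. Ccl4 rose by 2.95 ± 0.72 and 2.41 ± 0.72 (limma adjusted p = 0.00214 and 0.00881). The Ccl4 call was lost in males alone in Apc (1.93) and in females alone in ApcTT-labelled tumours (2.14).

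Ccl2, the monocyte attractant that acts on Ccr2, measured 27.8, 32.0, 46.1, 48.9 and 35.3 normalized counts in WT and rose by 1.92 ± 0.42 (SE; limma adjusted p = 0.000796) in Apc, where all 7 tumours (93.5 to 322) lay above WT. In ApcTT-labelled tumours (34.8 to 242) it overlapped WT, at 1.25 ± 0.42 (limma adjusted p = 0.0169). That call was lost in females alone (0.50, beside 1.85 in males), and the difference between the sexes was not called (limma adjusted p = 0.169). Ccl17, a Ccr4 ligand of dendritic cells, rose from a low WT mean of 14.4 ± 4.17 (SD, n = 5) by 1.38 ± 0.29 and 0.97 ± 0.29 (SE, limma adjusted p = 0.000639 and 0.00881). The Ccl17 call in Apc was lost in males alone (0.83). In ApcTT-labelled tumours it was lost in females alone (0.84) and in males alone (0.96). Ccl24, an eosinophil attractant, was called in Apc, at 2.50 ± 0.57 (limma adjusted p = 0.00129), beside 1.10 in ApcTT-labelled tumours, where it was called without replicate 2 (1.39, 0.0472). The Ccl24 difference between the tumour groups was not called (-1.40, limma adjusted p = 0.0711), but was without Apc replicate 4 (-1.75, 0.0169), ApcTT replicate 3 (-1.70, 0.0283) or ApcTT replicate 5 (-1.61, 0.0401).

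Ccl9, a Ccr1 ligand of myeloid cells and follicle-associated epithelium, rose in Apc and not in ApcTT-labelled tumours. WT libraries held 283, 357, 407, 407 and 427 normalized counts, Apc tumours 418 to 2747 with a median of 1411, and ApcTT-labelled tumours 247 to 1495 with a median of 295. The groups overlapped, and 6 of 7 ApcTT-labelled tumours lay at or below 521. Log2 fold changes were 1.71 ± 0.50 (SE; limma adjusted p = 0.00776) in Apc against WT, 0.11 ± 0.50 (0.866) in ApcTT-labelled tumours against WT and -1.59 ± 0.45 (0.0189) between the tumour groups.

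Their receptor Ccr1, found on neutrophils and macrophages, measured 270, 207, 256, 165 and 173 normalized counts in WT, 492 to 1148 with a median of 575 in Apc, and 444 to 739 with a median of 574 in ApcTT-labelled tumours. Both groups lay above WT, by 1.72 ± 0.19 (SE; limma adjusted p = 5.26e-07) and 1.51 ± 0.19 (1.83e-06). Ccr2, of inflammatory monocytes, was called in neither tumour group, at -0.31 and -0.13.

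Several members known from resting mucosa or lymphoid follicles were among those called lower. Ccl28, which colon epithelium secretes and which attracts IgA plasma cells, measured 11567, 10223, 11732, 6314 and 7091 normalized counts in WT, 1023 to 2907 with a median of 2072 in Apc, and 573 to 1420 with a median of 679 in ApcTT-labelled tumours. Every tumour lay below every WT library. Log2 fold changes were -2.38 ± 0.29 (SE; limma adjusted p = 2.12e-06) and -3.58 ± 0.29 (8.98e-09).

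Its receptor Ccr10 measured 124, 69.7, 70.5, 182 and 174 normalized counts in WT, 9.89 to 69.1 with a median of 27.4 in Apc and 14.0 to 65.2 with a median of 34.2 in ApcTT-labelled tumours. The highest Apc tumour came just under the lowest WT library. The fall was -1.88 ± 0.48 (SE; limma adjusted p = 0.00289) and -2.00 ± 0.48 (0.00168). Plasma cell markers, of cells that carry Ccr10, were called lower in 5 of 6 and higher in 1 in both groups, yet their summed level overlapped, at 27487 to 58236 in WT, 21359 to 44971 in Apc and 25420 to 46858 in ApcTT-labelled tumours, with none at 0. Colon epithelium markers, of cells that secrete Ccl28, were lower in 6 of 7 in both groups, with sums of 261565 to 306657, 29838 to 166998 and 15698 to 45317 and none at 0. The part of either in these results was not tested.

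Ccl6, a Ccr1 ligand and the most abundant ligand per kilobase in WT, measured 8104, 7365, 8603, 9947 and 9188 normalized counts there, 2647 to 5471 in Apc and 1443 to 8043 in ApcTT-labelled tumours. It fell by -0.96 ± 0.30 (SE; limma adjusted p = 0.0111) and -1.63 ± 0.30 (0.000135). The highest ApcTT-labelled library, which overlapped WT, was replicate 5, and without it the second value was -1.87. Cx3cl1, the membrane-bound ligand of Cx3cr1, measured 2994, 3196, 2790, 3648 and 2595 in WT, 1199 to 2734 with a median of 1926 in Apc and 856 to 1316 with a median of 1091 in ApcTT-labelled tumours. Its values descended across the groups, with ApcTT-labelled tumours below all of WT, at -0.78 ± 0.17 (SE; limma adjusted p = 0.00106) and -1.50 ± 0.17 (6.81e-07). Cx3cr1, on resident macrophages and monocytes, measured 549, 417, 588, 481 and 478 in WT, 217 to 712 (median 532) in Apc and 124 to 1220 (median 912) in ApcTT-labelled tumours and was called in neither, at -0.10 ± 0.44 and 0.52 ± 0.44 (limma adjusted p = 0.866 and 0.347). The lowest value, 124, came from ApcTT replicate 2, and without that library the second value was 1.03 (limma adjusted p = 0.00132).

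Ccl19, which with Ccr7 draws dendritic cells and naive T cells into lymphoid tissue, had the largest fall of any member. WT libraries held 17.8, 226, 89.7, 203 and 242 normalized counts, Apc tumours 1.73 to 22.1 with a median of 4.91 and ApcTT-labelled tumours 0 to 11.4 with a median of 4.31. WT replicate 1 was the lowest of its group and overlapped 1 Apc tumour. The log2 fold changes, -4.46 ± 0.62 (SE; limma adjusted p = 8.71e-06) and -5.07 ± 0.62 (1.39e-06), rest on low tumour values, and near-identical copies of Ccl19 in the mouse genome may share its reads. Ccr7 measured 27.6, 161, 81.8, 160 and 179 in WT, 21.6 to 103 (median 70.2) in Apc and 11.7 to 90.6 (median 46.6) in ApcTT-labelled tumours. Only in ApcTT-labelled tumours was it called, at -1.51 ± 0.51 (SE; limma adjusted p = 0.0194), beside -0.95 ± 0.51 (0.131) in Apc; the difference of the tumour groups was not called (-0.55 ± 0.46, limma adjusted p = 0.473), and the call was lost without WT replicate 2, 4 or 5 or ApcTT replicate 3 (-1.23 to -1.39).

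Cxcr5, the follicular B cell receptor for Cxcl13, measured 85.8, 416, 207, 493 and 414 normalized counts in WT and at most 47.5 in Apc and 60.0 in ApcTT-labelled tumours, a fall of -2.87 ± 0.33 (SE; limma adjusted p = 1.03e-06) and -2.64 ± 0.33 (2.09e-06). Cxcl13 was not called, at -1.24 and -1.19 (limma adjusted p = 0.113 and 0.129). Without ApcTT replicate 2 the second Cxcl13 value was -1.64 (limma adjusted p = 0.0253), and it differed between females (0.58) and males (-2.82; limma adjusted p of the difference = 0.0234). Ccr6, the Ccl20 receptor of B cells and type 17 lymphocytes, measured 22.8, 169, 94.7, 128 and 118 in WT, 1.45 to 8.80 with a median of 6.48 in Apc and 4.31 to 26.4 with a median of 22.8 in ApcTT-labelled tumours. All Apc tumours lay below WT, and ApcTT-labelled tumours overlapped only WT replicate 1, at -4.16 ± 0.51 (SE; limma adjusted p = 1.9e-06) and -2.48 ± 0.51 (0.000448). B cell markers moved beside both receptors: 11 of 11 were lower in each tumour group, and their sum was 1141 to 9203 in WT, with the lowest value in a female, 188 to 494 in Apc and 320 to 548 in ApcTT-labelled tumours, with none at 0. Their part in these falls was not tested. Xcr1, of cross-presenting dendritic cells, fell by -1.76 ± 0.41 and -1.37 ± 0.41 (limma adjusted p = 0.00153 and 0.00936), beside dendritic cell markers of which 1 of 10 was higher and 5 lower in Apc and 0 higher and 5 lower in ApcTT-labelled tumours by limma. Their summed level was 1211 to 2218 in WT, 1726 to 2657 in Apc and 1004 to 2055 in ApcTT-labelled tumours, with none at 0, and their part was not tested.

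**Figure D3:**
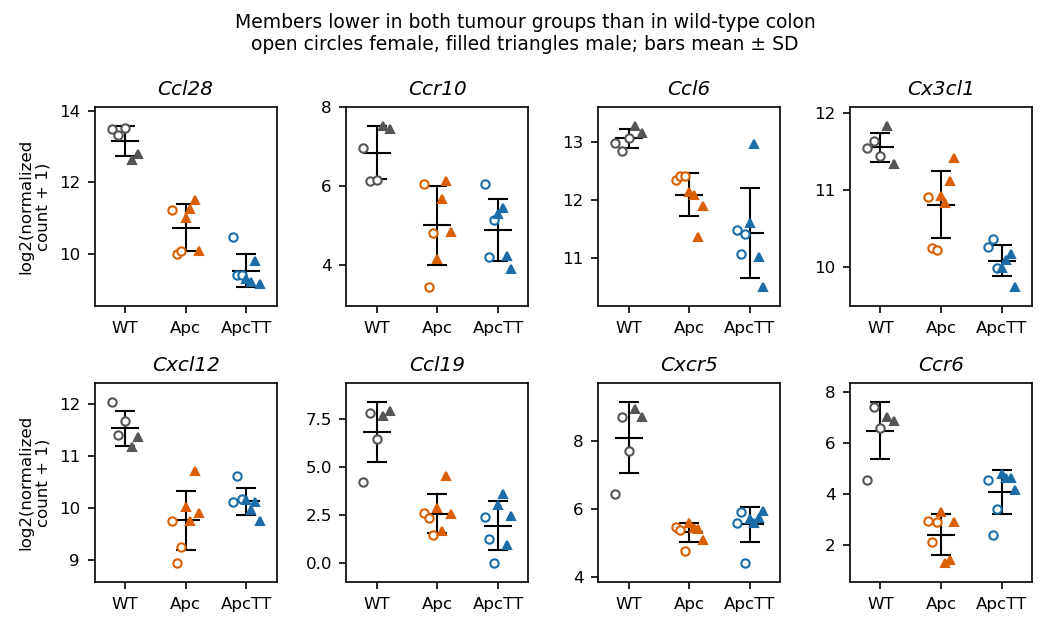
Expression in each library (y axis, log2 of normalized count + 1; scales differ between panels) by group for 8 members called lower in both tumour groups; open circles are females, triangles males, bars mean ± SD (WT n = 5, Apc n = 7, ApcTT n = 7). For Ccl28 and Cxcl12 no tumour reaches WT, and for Ccl19, Cxcr5 and Ccr6 WT replicate 1, the first open circle, is the lowest WT library.

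Atypical receptors moved in both directions. Ackr3, a scavenger of Cxcl12, measured 581, 472, 848, 484 and 492 normalized counts in WT, 722 to 1761 with a median of 843 in Apc and 1499 to 3128 with a median of 2183 in ApcTT-labelled tumours. Apc overlapped both other groups and ApcTT-labelled tumours lay wholly above WT, at 0.90 ± 0.24 (SE; limma adjusted p = 0.00402) and 2.01 ± 0.24 (8.42e-07). Ackr4, a scavenger of Ccl19, Ccl20 and Ccl25, measured 333, 252, 191, 322 and 213 in WT, 28.6 to 205 with a median of 77.7 in Apc and 2.95 to 83.9 with a median of 25.1 in ApcTT-labelled tumours. It fell by -3.13 ± 0.58 (SE; limma adjusted p = 0.00015) in ApcTT-labelled tumours; the Apc value, -1.57 ± 0.58 (0.0292), lost its call without any of WT replicates 1, 4 and 5 or Apc replicates 1 to 3 (-1.22 to -1.59). Ackr1 and Ackr2 were not called.

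Between the tumour groups 3 members were called higher and 7 lower in ApcTT-labelled than in Apc tumours, and 43 were not called. Over all genes the shares were 7.88% higher and 8.76% lower, and the median log2 difference was -0.21 for members and -0.01 for all genes. Ppbp had the largest difference, -2.56 ± 0.40 (SE; limma adjusted p = 0.000219), and was the only member whose tumour groups did not overlap (1 member lower and 0 higher, beside 1.77% and 2.3% of all genes). Its receptor Cxcr2 was lower by -0.98 ± 0.21 (limma adjusted p = 0.00356), and Cxcl3 by -1.15 ± 0.37 (0.0368). The Cxcl3 call was lost without any of 7 single libraries (Apc replicates 2, 3 and 7, ApcTT replicates 1, 2, 3 and 7), with values of -0.94 to -1.17. Quantile normalization (-1.03) and a constant of 0.5 (-1.15) lost it as well. In males alone Cxcl3 was at -0.32 (limma adjusted p = 0.452), beside -2.26 in females alone (0.017). The difference between the sexes was called for Cxcl3 (limma adjusted p = 0.0293). Of the neutrophil markers 3 were lower, namely Ly6g, Mmp8 and Mrgpra2b, and 16 were not called, and the part of neutrophils was not tested.

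Ccl28 was lower by -1.20 ± 0.27 (SE; limma adjusted p = 0.00416), Cx3cl1 by -0.72 ± 0.16 (0.00357) and Ccl9 by -1.59 ± 0.45 (0.0189). Each of these calls was lost in 1 sex taken alone. The difference between the sexes was called for Cx3cl1 (limma adjusted p = 0.0313) but not for Ccl28 (0.174) or Ccl9 (0.313). In females Ccl28 was at -0.68 and Cx3cl1 at -0.26 (limma adjusted p = 0.195 and 0.348), beside -1.59 and -1.07 in males, and in males Ccl9 was at -1.05 (limma adjusted p = 0.328), beside -2.32 in females. Ackr4 was lower by -1.55 ± 0.52 (limma adjusted p = 0.0469), a call lost without any of 11 single libraries (Apc replicates 2 to 7, ApcTT replicates 2, 4, 5, 6 and 7; -1.09 to -1.61). Colon epithelium markers moved beside Ccl28 here also, with 4 of 7 lower in ApcTT-labelled tumours.

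Ccl20 and its receptor Ccr6 were both higher in ApcTT-labelled tumours. Ccl20, made by epithelium over follicles and under inflammatory stimuli, measured 57.4, 198, 139, 231 and 276 normalized counts in WT, 19.8 to 205 with a median of 36.2 in Apc and 112 to 672 with a median of 151 in ApcTT-labelled tumours. Apc tumours lay lowest, with overlap, and the tumour groups differed by 1.94 ± 0.55 (SE; limma adjusted p = 0.0192). Against WT, ApcTT-labelled tumours did not differ by the test (0.33 ± 0.60, limma adjusted p = 0.671), and the Apc value, -1.60 ± 0.60 (0.034), lost its call without any of WT replicates 2 to 5 or Apc replicates 1, 4, 6 and 7 (-1.37 to -1.62). Ccr6 differed by 1.68 ± 0.46 (SE; limma adjusted p = 0.0164), at levels that stayed at or under 26.4 in every tumour. Both calls were lost in females alone, where Ccl20 differed by 0.57 and Ccr6 by 0.81 (limma adjusted p = 0.597 and 0.454), beside 2.97 and 2.33 in males alone (0.00632 and 0.00823), and the difference between the sexes was not called for either. No B cell marker was called between the tumour groups (0 of 11). Ackr3 was higher by 1.12 ± 0.21 (limma adjusted p = 0.00138), with overlap.

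Between the tumour genotypes, many members differed one way in females and the other way in males. A test of the male effect minus the female effect called 21 of 53 members (39.6%), beside 23.6% of all genes, and 18 of the 21 had opposite signs in the sexes. Female ApcTT-labelled tumours were more often called lower than female Apc tumours (4 members called higher, 15 lower; 12.1% and 12% of all genes), and males more often higher (13 higher, 9 lower; 8.37% and 8.99%). The same test called 0 members (0 by limma, 0.0108% of all genes) in Apc against WT and 1, Cxcl13, in ApcTT against WT (3.4% of all genes). Tumour groups held 3 females and 4 males each, but WT held 3 females and 2 males, so the tests against WT rest on only 2 WT males. Litter or cage was not recorded in the labels used here.

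Receptors and ligands of monocytes and macrophages were among the 21. Ccr2, the receptor that brings inflammatory monocytes out of the marrow, measured 589, 362 and 338 normalized counts in Apc females and 193, 51.9 and 219 in ApcTT-labelled females. Among males it measured 153, 191, 233 and 109 in Apc and 600, 400, 561 and 424 in ApcTT-labelled tumours. The order of the genotypes was thus reversed without overlap in either sex, with log2 differences of -1.67 in females and 1.56 in males (difference 3.23, limma adjusted p = 0.0013).

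For the Ccr2 ligand Ccl7, female values were 109, 342 and 126 in Apc against 44.6, 5.37 and 111 in ApcTT-labelled tumours, and male values 40.1, 98.5, 112 and 33.9 against 282, 152, 311 and 129. Only the males were free of overlap. Ccl7 differed between the sexes by 4.10 and Ccl2 by 2.46, the latter at -2.08 in females and 0.39 in males (limma adjusted p = 0.0111 and 0.0039).

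Ccl22, a Ccr4 ligand of dendritic cells and macrophages, measured 260, 209 and 201 normalized counts in Apc females against 52.2, 22.8 and 31.0 in ApcTT-labelled females, and 65.4, 55.2, 31.2 and 28.2 against 155, 154, 69.0 and 63.1 in males. Its difference between the sexes was 3.94 (limma adjusted p = 0.00044). Ccr4, Ccr7, Cxcr6, Cx3cr1, Xcr1, Ccl12, Cxcl10 and Cxcl5 likewise were lower in females and higher in males, by fitted value.

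Cxcl13, the B cell attractant of follicles, went the opposite way. Apc females held 123, 207 and 151 normalized counts and ApcTT-labelled females 564, 1411 and 613, whereas Apc males held 217, 326, 667 and 434 and ApcTT-labelled males 157, 245, 70.9 and 76.4. Females did not overlap, and males overlapped in part. Log2 differences were 2.32 and -1.65 (difference -3.97, limma adjusted p = 0.000957), and Cxcl14 (-1.57), Cxcl12 (-1.09), Ackr4 (-2.94) and Cx3cl1 (-0.82) had negative differences as well.

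**Figure D4:**
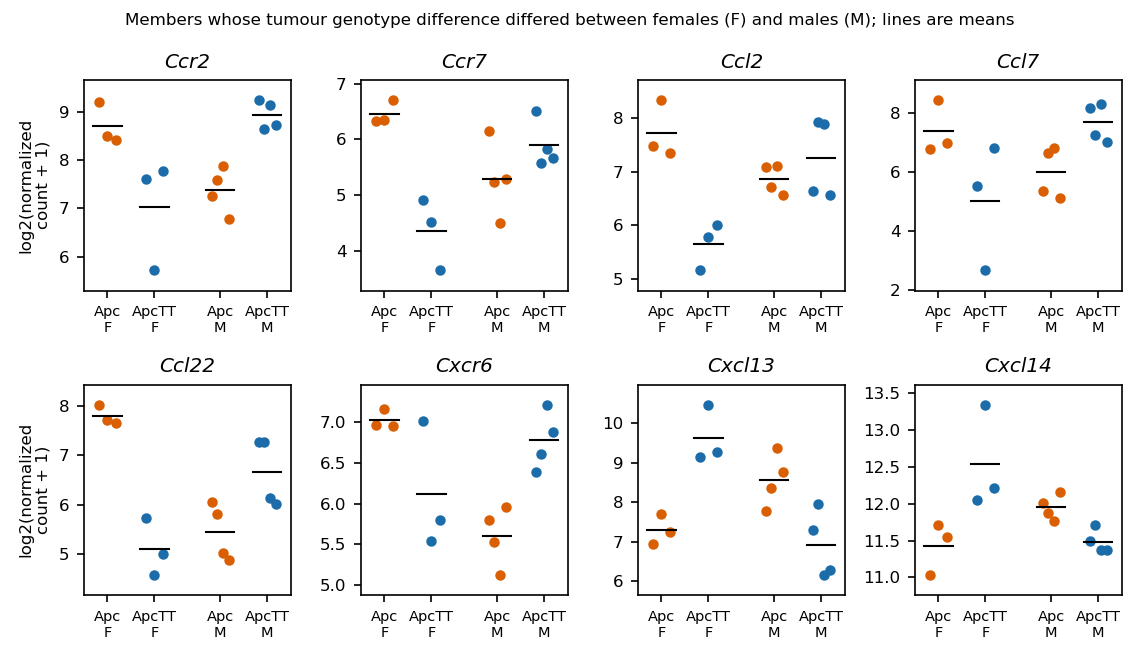
Expression in each tumour library (y axis, log2 of normalized count + 1; scales differ between panels) for 8 members by genotype and sex; lines are means (3 females and 4 males per genotype). Ccr2, Ccr7, Ccl2, Ccl7, Ccl22 and Cxcr6 are on average lower in ApcTT than Apc among females and higher among males, and Cxcl13 and Cxcl14 are the reverse.

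**Figure D5:**
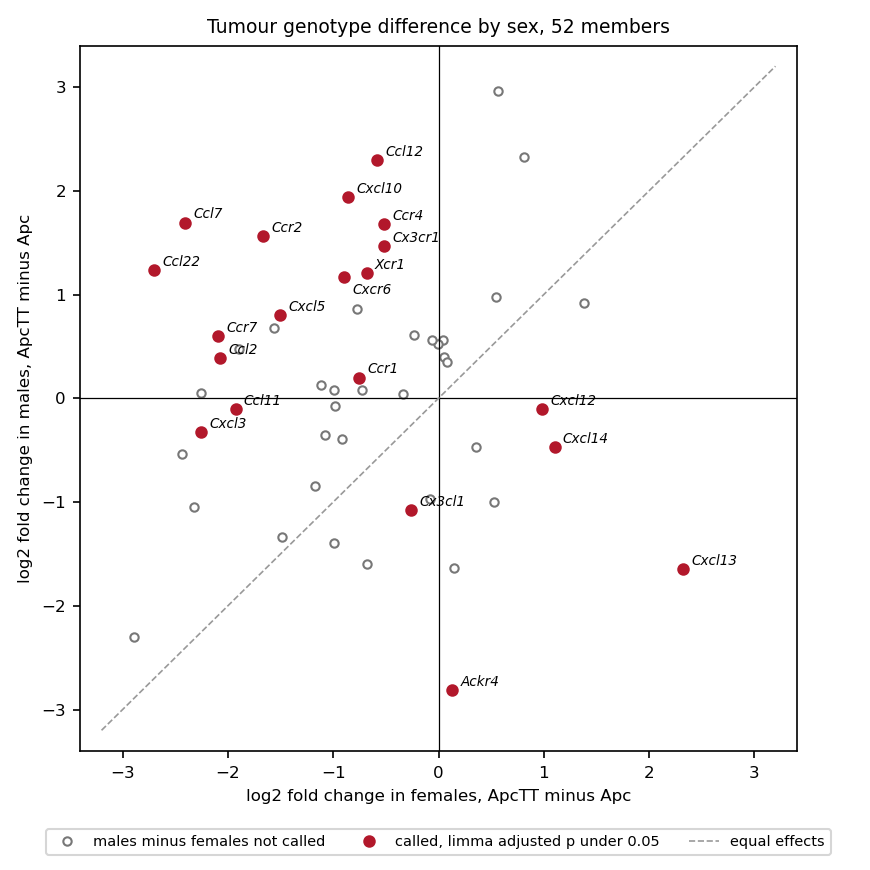
Log2 fold change of ApcTT against Apc tumours in females (x axis) and in males (y axis) for 52 tested members, with filled points where the difference between the sexes had a limma adjusted p under 0.05 and a dashed line at equal effects. Most of the filled points lie in the upper left, lower in females and higher in males.

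Some leukocyte markers differed between the sexes in the same direction, and others did not. The pan-leukocyte gene Ptprc ran from 1271 to 1497 normalized counts in Apc females, 594 to 908 in ApcTT-labelled females, 570 to 737 in Apc males and 780 to 1610 in ApcTT-labelled males. The summed macrophage and monocyte list (15 markers, all tested, none at 0) ran in the same order from 27659 to 30425, 18167 to 31501, 16053 to 21977 and 25100 to 27025. Its female groups overlapped. T cell markers summed to 1458 to 1711, 969 to 1215, 1251 to 1523 and 1164 to 1619, with overlap in males. Dendritic cell markers summed to 2281 to 2657, 1004 to 1258, 1726 to 2274 and 1645 to 2055, so that they were lower in ApcTT-labelled females and overlapped in males. Neutrophil markers summed to 15712 to 20510, 6865 to 26477, 15062 to 24633 and 7702 to 13212, lower in ApcTT-labelled males without overlap. That sum holds Ly6g and Slfn4, the most abundant of the list in WT and called lower in tumours. It ran from 24715 to 43131 in WT males, so it does not follow the 17 markers called higher in tumours. NK cell sums (88.6 to 155, 88.5 to 96.9, 77.7 to 259 and 85.9 to 144) overlapped in both sexes, and mast cell sums (2561 to 3073, 1781 to 4097, 1048 to 3208 and 4823 to 8191) overlapped in females alone. Platelet and megakaryocyte sums (223 to 271, 557 to 826, 445 to 853 and 261 to 348) were higher in ApcTT-labelled females and lower in ApcTT-labelled males, without overlap. Hoxb13, a gene of distal colon, ran from 1542 to 5470, 7263 to 8720, 1088 to 9351 and 6540 to 8079. The part of these in the sex difference was not tested.

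Further genes of chemokine signalling, taken from a list of 42 non-members, all tested, were called in both directions. In Apc 13 rose and 13 fell (median -0.14), beside 23.9% and 25.2% of all genes, in ApcTT-labelled tumours 11 and 11 (median -0.09), beside 24.8% and 25.5%, and between the tumour groups 1 was higher and 6 lower (median 0.02), beside 7.88% and 8.76%. Tiam1, an exchange factor for Rac, rose by 1.85 ± 0.10 and 2.51 ± 0.10 (SE; limma adjusted p = 3.26e-11 and 5.15e-13), Prex1, another Rac exchange factor, by 1.54 and 1.70, and Dpp4, a peptidase that trims chemokines, had -2.95 ± 0.39 in ApcTT-labelled tumours (limma adjusted p = 3.99e-06). Of 35 inducers and regulators of chemokine transcription, 32 were tested. In Apc 15 rose and 11 fell (median 0.22), in ApcTT-labelled tumours 13 rose and 7 fell (median 0.27), and between the tumour groups 6 were higher and 2 lower (median 0.14).

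Cytokines known to induce ELR ligands were among those that rose, and their part in the ELR ligand results was not tested. Of the 32 tested genes of that list, 11 fell in Apc tumours and 7 in ApcTT-labelled tumours. Il1a averaged 12.3 ± 3.38 (SD, n = 5) normalized counts in WT, 447 ± 314 (n = 7) in Apc and 202 ± 103 (n = 7) in ApcTT-labelled tumours, and Il1b averaged 114 ± 56.9, 2629 ± 1301 and 1245 ± 690. Tnf rose by 3.52 ± 0.39 and 4.05 ± 0.39 (SE; limma adjusted p = 5.8e-07 and 6.69e-08). Il6 differed between the tumour groups, with means of 194 ± 231 in Apc and 9.48 ± 9.46 (SD, n = 7) in ApcTT-labelled tumours and a log2 difference of -3.85 ± 0.60 (SE; limma adjusted p = 0.000236). Irf7, a driver of interferon responses, was higher in ApcTT-labelled than in Apc tumours by 2.45 ± 0.38 (limma adjusted p = 0.000217), with WT at 6096 ± 4988, Apc at 980 ± 259 and ApcTT-labelled tumours at 6057 ± 3787 (SD).

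Members not tested were Ccl1, Ccl26, Ccr3, Ccr8, Cxcl17, Cxcr1 and Xcl1. Ccl26 was listed at 0 in every library, and the other group means did not exceed 12.7 normalized counts, the mean of Cxcl17 in Apc tumours. The tested members with no call against WT in either tumour group numbered 17, among them Ccl7, Ccl8, Ccl12, Ccl22, Ccr9 and Cxcr4. Ccl27a and Ccl27b lie among near-identical copies, and the small fall of Ccl27b in Apc (-0.83 ± 0.32 SE, limma adjusted p = 0.0402) is uncertain for that reason; it was lost without any of 8 single libraries (WT replicates 1, 3, 4 and 5, Apc replicates 3, 4, 5 and 7; -0.70 to -0.83). Ccl5, a T and NK cell product, was called lower in Apc only (-1.21 ± 0.47 SE, limma adjusted p = 0.0384), and that call too was lost without any of WT replicates 2, 4 and 5 or Apc replicates 3 to 6, the lowest size being -0.81 without WT replicate 4. Ccl25 in Apc (-0.53 ± 0.19 SE, limma adjusted p = 0.0249) lost its call without WT replicate 1 (-0.49) or 5 (-0.50).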

How the data were processed

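Poly-A libraries of 19 mice were sequenced as single-end reads of 75 bases on an Illumina NextSeq 500, per the labels' protocols. The submitters' processing notes name Salmon, DESeq2 and the build GRCm38 (mm10), with versions, annotation and strand use not given in the sources used here. A single deposited table holds a normalized signal, which the authors scaled between libraries. The values are not whole and whole reads were not recovered, so the depth of each library is not known. From these values log2(normalized count + 1) was computed, genes with at least 10 in at least 5 libraries were kept, and limma 3.58.1 in R 4.3.3 (trend, robust prior, 3 groups in 1 fit, sex as a term, two-sided, Benjamini-Hochberg over 18445 genes, threshold 0.05) gave fold changes and adjusted p. Fold changes on this scale understate changes of low genes. The sex test used 1 mean per group and sex. The fit was tested on simulated data. Alternatives changed the constant, filter, scaling, samples and prior.

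Members, gene lists and tests were chosen with earlier results of these data known. Values are printed in full for members called between tumour groups, for the 8 largest called changes against WT among members with a group mean of at least 50, and for receptors of those ligands, 19 members in all; others were named after their values were seen. Each library is a separate animal, so the spread is between animals. Positions and exon lengths are from GENCODE vM21, promoters from RefSeq GRCm38.p6. Protein sequences were not used here. Counts of members include 1 tested member whose values are not reported here.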

Additional observations from a re-analysis of the deposited data

Results flagged for a closer look

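In 156 groups of libraries (52 members in 3 groups), 15 had a library that stood apart by Dixon's test at 95%; chance gives about 1 in 20 groups. ApcTT replicate 2 stood apart for Ccl12 (14.8 normalized counts, low), Cx3cr1 (124, low) and Cxcl14 (10400, high), and ApcTT replicate 5, the library with the most Rn45s, for Ccl9 (1500, high). ApcTT replicate 3 was low for Cxcr5 (20.3). In WT, replicate 2 was high for Cxcr2 (118) and Cxcl3 (2.28, the others at 0) and low for Pf4 (98.2) and Ccl27b (8.87), replicate 3 was high for Ccl17 (21.8) and low for Cxcr3 (21.8), and replicate 1 was high for Ccl12 (77). Among Apc tumours, replicate 4 was low for Ccl24 (17.9), replicate 6 for Cxcr2 (338) and replicate 7 for Ccr9 (26.6).

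The genotype effect differed between males and females, by a limma test of the difference, for 21 members in ApcTT against Apc tumours. The male effect minus the female effect on the log2 scale is given for 20 of them, and was 4.1 for Ccl7, 3.94 for Ccl22, 3.23 for Ccr2, 2.88 for Ccl12, 2.79 for Cxcl10, 2.7 for Ccr7, 2.46 for Ccl2, 2.31 for Cxcl5, 2.19 for Ccr4, 2.07 for Cxcr6, 1.99 for Cx3cr1, 1.93 for Cxcl3, 1.89 for Xcr1, 1.82 for Ccl11 and 0.95 for Ccr1. It was -0.82 for Cx3cl1, -1.09 for Cxcl12, -1.57 for Cxcl14, -2.94 for Ackr4 and -3.97 for Cxcl13. In ApcTT against WT, Cxcl13 alone was called, at -3.4.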

How the results depend on the processing

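Of 71 called member results, 42 kept their call in every setting run for them, and 62 kept it without each replicate of the groups compared. There were 32 settings, but a single library was left out only for comparisons of its own group, and a stricter filter dropped some members. Leaving out 1 library at a time gave 29 to 33 called members in Apc against WT, 26 to 33 in ApcTT against WT and 8 to 12 between the tumour groups. Between the tumour groups the count of 10 became 19 with females alone and 22 with only males; the sexes differed in direction, as the test of that difference above shows. Signs turned among results called under either setting. In females alone, ApcTT against Apc gave 0.13 for Ackr4 and -1.67 for Ccr2. In males alone it gave 1.24 for Ccl22, 1.69 for Ccl7, -1.65 for Cxcl13 and -0.47 for Cxcl14, and ApcTT against WT gave 0.93 for Ccr2 and -0.73 for Cxcr4. The cause was not tested. Without ApcTT replicate 2 there were 33 called members in ApcTT against WT in place of 27. Leaving out ApcTT replicates 2 and 5 together, chosen after seeing the data, gave 35, 31 and 13 called members; equal totals taken without the 10 highest genes, also chosen afterwards, gave 20 higher and 12 lower in Apc. No paired analysis was made, since each library came from a different mouse. The labels give no replicate numbers, and the numbers used follow the sample order only. Depth per library is not known, because totals of values already scaled between libraries do not give it. Values under about 10 normalized counts therefore carry a counting error that cannot be stated.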
